A study of Mus musculus with 8 samples.

Results

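Chrysotile, the serpentine form of asbestos, was compared with the amphibole forms crocidolite and amosite, pooled as one side, in fat cells grown in culture. The comparison used 6 of the 8 arrays of the study: 2 from cells given chrysotile, and 4 from cells given an amphibole (2 crocidolite, 2 amosite). The cells were mature adipocytes differentiated from 3T3-L1, a mouse preadipocyte line, and each fibre group received 10 mg/cm2 of fibre for 72 h, a large amount, and its unit was not verifiable from these files. The remaining 2 arrays came from cells given physiological saline for 72 h and are quoted only as levels. Genes named as higher or lower with chrysotile had the crocidolite mean and the amosite mean on the same side of the chrysotile mean, which held for 37479 of 55672 probes (67.3%), while reference transcripts, cell markers and list medians are quoted as values whichever side they lay on.

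Chrysotile is a magnesium silicate whose sheets curl into flexible fibres, whereas crocidolite and amosite are straight, stiff silicate fibres that carry iron. Cells that meet such fibres are known to respond with chemokines, AP-1 transcription factors, urokinase and its receptor, and matrix proteases. Adipocytes store triglyceride, secrete adiponectin and leptin, and can release chemokines that attract monocytes.

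Each array was centred so that its 75th percentile of intensity is 0, and every level below is a log2 level on that scale. The scanner called 31292 to 34983 probes (56.2% to 62.83%) well above background per array. The 75th percentile itself ran from 340.07 to 453.41 intensity units. All 8 arrays lay on 1 slide, with each group in a row of its own, so row and group cannot be told apart. The adipocyte label was borne out by high levels of Adipoq, the adiponectin gene, at 9.29 and 9.16 with chrysotile, 9.15 and 9.29 with crocidolite, 9.22 and 9.28 with amosite, and 9.19 and 9.65 with saline. The summed level of 30 adipocyte genes was 12.33 and 12.31 with chrysotile, and between 12.26 and 12.37 on the 4 amphibole arrays. Precision is limited throughout by how few arrays there were.

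No probe passed the test. With limma's moderated fit and Benjamini-Hochberg adjustment over 55672 probes, 0 (0%) had an adjusted p under 0.05, and the smallest adjusted p was 0.1316. At an unadjusted p under 0.05 there were 1919 probes (3.45%), of which 1370 were higher with chrysotile (2.46%) and 549 were lower (0.986%). Fitted with the replicate number as a block, again 0 probes passed (smallest adjusted p = 0.2295), while 2645 fell under 0.05 before adjustment. With only 1 chrysotile array, assumed to vary like the others, the count of calls was 68 without chrysotile replicate 1 and 1066 without chrysotile replicate 2, and it was 0 without any 1 amphibole array. Nothing in the labels says that replicates were separate cultures, so each p-value reflects only how far these samples spread, and that spread may be technical.

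Size and separation were therefore counted as well, with no test. Both chrysotile arrays lay above all 4 amphibole arrays and at least 2-fold higher on average for 697 probes (1.25%), and below them by as much for 222 probes (0.399%). Most of these were faint: 582 of the 697 (83.5%) and 188 of the 222 (84.68%) were not above background on every array of either side. Among the 29753 probes above background on all 6 fibre arrays, 17 were higher (0.0571%) and 16 lower (0.0538%). With 1 probe per named gene, those measured on all 6 arrays came to 9 genes higher with chrysotile and 9 lower. The plot of chrysotile against each amphibole shows these 18 genes at the ends of a cloud that is centred near 0.

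**Figure D1:**
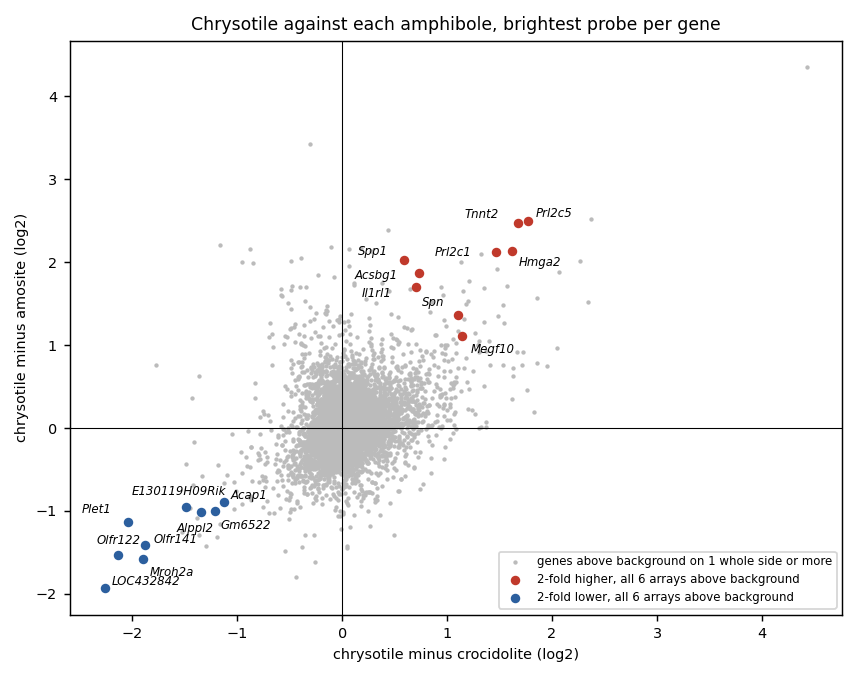
Each grey point is 1 of 15003 named genes above background on all arrays of at least 1 side, plotted as the log2 difference chrysotile minus crocidolite (horizontal) against chrysotile minus amosite (vertical). Red and blue points are the 9 genes higher and the 9 genes lower by 2-fold or more with no overlap and above background on all 6 arrays. Both axes share the same chrysotile arrays. The lone point at the upper right is Tigit, at 4.43 and 4.35.

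Hmga2 and Tnnt2 were the clearest genes on the high side, and the start of each gene is shown here because both stood apart from crocidolite and from amosite. Each window runs from 250 bases before to 50 bases after the annotated start (RefSeq, build GRCm38.p6, written 5′ to 3′ on the gene's strand). Capitals mark a match to the NF-kB motif, which is GGG and CC with 5 bases of any kind between them. Also searched, on both strands, were the AP-1 motif TGANTCA and the antioxidant response motif TGACNNNGC, neither of which was found in these windows.
Hmga2, chr10:120476420-120476719, minus strand: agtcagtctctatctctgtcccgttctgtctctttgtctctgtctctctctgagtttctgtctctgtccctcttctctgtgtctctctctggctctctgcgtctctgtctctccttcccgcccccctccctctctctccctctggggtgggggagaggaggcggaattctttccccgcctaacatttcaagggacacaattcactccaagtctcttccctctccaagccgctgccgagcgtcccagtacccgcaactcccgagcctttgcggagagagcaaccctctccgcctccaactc
Tnnt2 first start, chr1:135836084-135836383, plus strand: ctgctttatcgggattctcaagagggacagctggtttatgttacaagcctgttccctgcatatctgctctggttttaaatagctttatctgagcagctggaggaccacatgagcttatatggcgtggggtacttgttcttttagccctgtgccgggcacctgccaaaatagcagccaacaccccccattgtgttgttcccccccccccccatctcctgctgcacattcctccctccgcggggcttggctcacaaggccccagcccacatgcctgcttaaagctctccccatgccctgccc
Tnnt2 second start, chr1:135836739-135837038, plus strand: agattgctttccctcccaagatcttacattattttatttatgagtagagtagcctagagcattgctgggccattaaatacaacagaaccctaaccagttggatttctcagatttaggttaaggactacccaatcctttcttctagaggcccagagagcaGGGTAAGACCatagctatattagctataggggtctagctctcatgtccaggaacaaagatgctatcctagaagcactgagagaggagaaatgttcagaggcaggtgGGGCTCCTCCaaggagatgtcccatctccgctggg
The second Tnnt2 window held 2 NF-kB matches, beginning at base 160 and base 266, and the Hmga2 window held none of the 3 motifs. Across all 32851 mouse windows, 50.8% held the NF-kB motif, 7.81% the AP-1 motif and 12.4% the antioxidant motif. Of the 9 higher genes, 7 had windows (10 in all), of which 3 held the NF-kB motif, 0 the AP-1 motif and 2 the antioxidant motif. A match or its lack describes these letters only.

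Hmga2 encodes an architectural chromatin protein of embryonic and growing cells. Its level was 1.39 and 1.45 with chrysotile, against -0.05 and -0.35 with crocidolite, -0.30 and -1.12 with amosite, and -0.69 and -1.22 with saline. The chrysotile arrays were nearly equal and lay well clear of every other array. The difference was 1.87 ± 0.31 (SE, 2 against 4 arrays), or 3.66-fold, with an adjusted p of 0.4312 from limma. This probe lies on chr10:119798739-119798798 (mm9, minus strand), and the second Hmga2 probe gave a difference of 1.70 ± 0.37. Set apart, the difference was 1.62 ± 0.33 from crocidolite and 2.13 ± 0.33 from amosite, both resting on the same chrysotile arrays and taken, as below, from a fit of all 8 arrays as 4 groups. The related gene Hmga1, named after its values were seen, stood at 5.97 and 5.57 with chrysotile, against 5.45, 5.35, 5.48 and 5.39 on the amphibole arrays, a difference of 0.35 ± 0.14, although 1 of its 3 probes above background had the opposite sign.

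Tnnt2 encodes the cardiac form of troponin T, a protein of the muscle thin filament. Its level was -0.27 and -0.00 with chrysotile, against -2.08 and -1.56 with crocidolite, -2.48 and -2.73 with amosite, and -2.94 and -2.93 with saline. The 4 groups were stepped in that order with no overlap between neighbours. The difference was 2.07 ± 0.35, or 4.20-fold, with an adjusted p of 0.4364 from limma, and it was 1.68 ± 0.22 from crocidolite and 2.46 ± 0.22 from amosite. Its single probe lies on chr1:137747976-137748288 (mm9, plus strand). The exon or untranslated region under each probe was not analysed here.

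Of the other 7 genes of the higher set, Spp1 and Il1rl1 came from the gene lists. Prl2c5, Prl2c1, Acsbg1, Megf10 and Spn were named after their values were seen. Prl2c5 and Prl2c1 belong to the proliferins, prolactin-like hormones known from growing fibroblasts and placenta, and since the family has near-identical copies the array may not keep its members apart. Prl2c5 stood at 2.17 and 1.78 with chrysotile, against 0.89 and -0.49 with crocidolite, 0.20 and -1.25 with amosite, and -0.84 and -1.76 with saline. On every treatment the replicate 1 array was the higher one. The difference was 2.14 ± 0.60 (4.39-fold), and its second probe gave 2.20. Prl2c1 followed the same order, at 1.64 and 1.16 with chrysotile, 0.64 and -0.78 with crocidolite, 0.03 and -1.47 with amosite, and -0.63 and -1.88 with saline, a difference of 1.79 ± 0.61. Adjusted p was 0.9977 for both genes from limma, and with the replicate block it was 0.5694 for Prl2c5 and 0.6393 for Prl2c1.

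Spp1 encodes osteopontin, a secreted phosphoprotein of bone and inflamed tissue. It stood at 2.92 and 3.92 with chrysotile, against 2.78 and 2.88 with crocidolite, 1.47 and 1.33 with amosite, and 0.83 and 1.18 with saline. One chrysotile array lay barely above crocidolite, and amosite lay near saline, so the mean difference of 1.31 ± 0.59 joined 0.59 ± 0.34 from crocidolite with 2.02 ± 0.34 from amosite. Il1rl1, the receptor for interleukin 33, was spread likewise, at -1.11 and -0.57 with chrysotile, -1.34 and -1.74 with crocidolite, -2.01 and -3.08 with amosite, and -2.39 and -3.12 with saline. Its difference was 1.20 ± 0.50, or 0.80 with normexp, another background correction, at an offset of 50. For gene differences, normexp is quoted where it moved them by more than 1.5 times. Acsbg1, an acyl-CoA synthetase for very long chains, stood at -0.70 and -0.05 with chrysotile, -1.03 and -1.19 with crocidolite, -2.04 and -2.44 with amosite, and -1.83 and -2.40 with saline. The second Acsbg1 probe gave a difference of -0.03, so its probes disagreed.

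Megf10, an engulfment receptor, did not share that ladder. It stood at -0.43 and 0.19 with chrysotile, against -1.66 and -0.87 with crocidolite, -1.49 and -0.96 with amosite, and -1.58 and -1.06 with saline. Both amphiboles overlapped saline, and replicate 2 was the higher array in each group. The difference was 1.12 ± 0.31 with an adjusted p of 0.9977 from limma, and 1.12 ± 0.10 with the replicate block (adjusted p = 0.2295). Spn, which encodes the white cell surface protein CD43, stood at -2.69 and -1.0 with chrysotile, against -2.96 and -2.93 with crocidolite, -3.18 and -3.23 with amosite, and -2.95 and -2.90 with saline. Its difference of 1.23 ± 0.46 came mostly from chrysotile replicate 2, and without that array it was 0.39. With normexp it was 0.74.

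**Figure D2:**
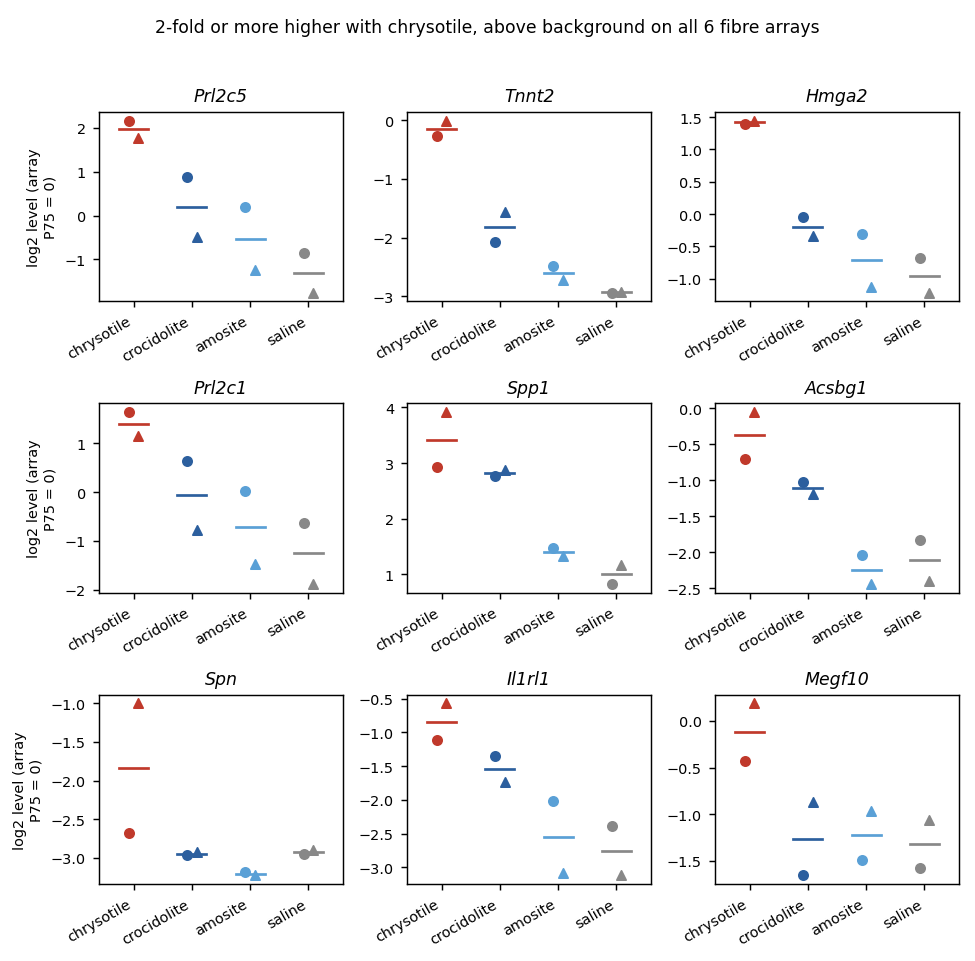
Log2 level (75th percentile of each array set to 0) of the 9 genes higher with chrysotile, for chrysotile, crocidolite, amosite and saline. Circles are replicate 1, triangles replicate 2 and bars the mean of 2 arrays. Tnnt2 and Hmga2 have close chrysotile arrays set off from all others, whereas for Spp1 the crocidolite arrays reach nearly to the lower chrysotile array at 2.92.

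The rule for named genes also took 10 transcripts that were higher with chrysotile but faint, 9 of which were below background on all 4 amphibole arrays. For these a fold is an estimate with a floor, and not a strict lower bound. Each amphibole array is first raised to the lowest level that any probe above background had on it. The chrysotile mean is then set against the amphibole mean. A probe not called above background can lie above that floor, as Gm3646 did on amosite replicate 1 (-4.50 against -4.79). Tigit, an inhibitory receptor of T cells and natural killer cells, stood at -1.08 and -3.65 with chrysotile, against -6.65, -6.95, -6.67 and -6.77 on the amphibole arrays and -6.43 and -6.46 with saline. With the floor it was 5.37-fold higher, and its chrysotile arrays differed more from each other than the 4 amphibole arrays did. Its adjusted p from limma was 0.4069, and it was 0.03019 without chrysotile replicate 1 and 0.004145 without chrysotile replicate 2, with the lone array assumed to vary like the rest. Ptprc, the pan-leukocyte marker CD45, was close to background, at -4.38 and -5.72 with chrysotile and between -4.82 and -4.57 on the amphibole arrays.

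Lce1g, a late cornified envelope gene of skin, stood at -3.87 and -2.98 with chrysotile, against -5.70, -5.89, -5.09 and -6.79 on the amphibole arrays. With the floor it was 2.59-fold higher. Epo, the erythropoietin gene, stood at -3.78 and -4.42 with chrysotile, against -5.77, -5.38, -6.18 and -5.84, and was 1.62-fold higher with the floor. Both saline arrays for Epo, at -4.17 and -4.83, were below background yet nearer to chrysotile than to the amphiboles. Adgrg3, an adhesion G protein-coupled receptor of neutrophils, was above background on 2 of 4 amphibole arrays and stood at -3.03 and -1.77 with chrysotile, against -4.64, -4.70, -4.09 and -4.74. With normexp Tigit differed by 1.34, Adgrg3 by 0.86, Lce1g by 0.50 and Epo by 0.26. The others were Sval1, Dpys (the pyrimidine-degrading dihydropyrimidinase), A830005F24Rik, Fam221a, Gm3646 and Efhb. With the floor they were 2.01, 1.70, 2.44, 1.26, 1.91 and 1.75-fold higher, in that order. With normexp they differed by between 0.19 and 0.36. For Sval1 saline replicate 1, at -3.374, lay above both chrysotile arrays (-3.585 and -3.985), and saline replicate 2 was at -5.522. For Fam221a saline replicate 1, at -4.535, lay above chrysotile replicate 2 (-4.725), and saline replicate 2 was at -6.613. Adjusted p over the 12 higher genes of the rule ran from 0.4069 to 0.7196 (limma).

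Most genes that were low with chrysotile had levels on the amphibole arrays close to those with saline. Mroh2a, a gene of the maestro heat-like repeat family, stood at -2.05 and -2.20 with chrysotile, against -0.32 and -0.13 with crocidolite, -1.0 and -0.08 with amosite, and 0.06 and -0.38 with saline. Both chrysotile arrays lay below every other array by about 1 unit or more. The difference was -1.74 ± 0.29 (3.34-fold lower, adjusted p = 0.4312 from limma), on chr1:90155203-90155262 (mm9, plus strand), and a second Mroh2a probe, below background throughout, had the opposite sign at 1.01. LOC432842 stood at -3.60 and -4.64 with chrysotile, against -1.91 and -1.81 with crocidolite, -2.72 and -1.65 with amosite, and -1.53 and -1.97 with saline, a difference of -2.10 ± 0.42. With normexp LOC432842 was at -0.90.

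Olfr122 and Olfr141, members of the olfactory receptor family, had the same shape. Olfr122 stood at -3.28 and -3.37 with chrysotile, against -1.54 and -0.83 with crocidolite, -2.49 and -1.10 with amosite, and -1.08 and -1.94 with saline, a difference of -1.83 ± 0.47. Olfr141 stood at -3.97 and -4.21 with chrysotile, against -2.12 and -2.30 with crocidolite, -3.40 and -1.95 with amosite, and -2.03 and -2.39 with saline, a difference of -1.64 ± 0.43. With normexp these were -1.06 for Olfr122 and -0.70 for Olfr141. Amosite replicate 1 was the lowest amphibole array for both, and in 10 of the 12 lower genes of the rule. Receptor genes of this family have many similar copies, so cross-hybridisation was not separated here.

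Of the remaining lower genes, Plet1, a placenta-expressed surface protein, stood at -3.81 and -3.55 with chrysotile, against -1.73 and -1.56 with crocidolite and -3.34 and -1.76 with amosite, with saline apart at -0.81 and -3.12. E130119H09Rik stood at -1.22 ± 0.26, Alppl2, a placental-type alkaline phosphatase, at -1.18 ± 0.23 and Gm6522 at -1.11 ± 0.22, all differences measured on every array. Acap1, named after its values were seen, was -1.01 ± 0.41, and its saline arrays at -3.69 and -3.26 lay near chrysotile, not near the amphiboles. Otos and Htr1d, a serotonin receptor, were below background with chrysotile. With the floor set on the chrysotile arrays they were 2.24 and 1.85-fold lower, and they were at -0.29 and -0.25 with normexp. Pcbd1, a cofactor-recycling dehydratase, was above background on 1 of 2 chrysotile arrays, with a difference of -1.21 ± 0.33. With normexp Plet1 was at -0.84, Alppl2 at -0.44, Gm6522 at -0.41, Acap1 at -0.45 and Pcbd1 at -0.34. Adjusted p over the lower genes named here ran from 0.3746 for Otos to 0.9977 (limma).

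**Figure D3:**
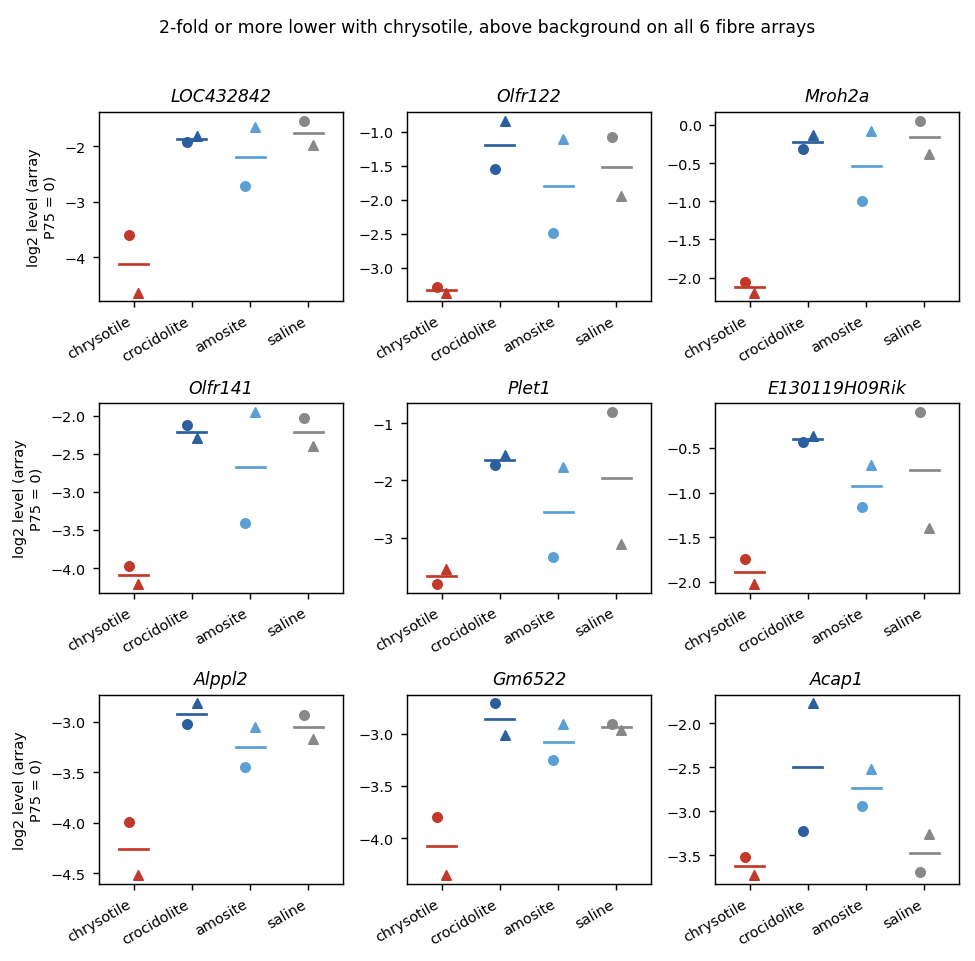
Log2 level of the 9 genes lower with chrysotile, drawn as in the plot of higher genes. The chrysotile mean is lowest in every panel, the 2 amosite arrays are often far apart, and saline mostly falls with the amphiboles. For Acap1 saline lies near chrysotile, at -3.69 and -3.26. Saline replicate 2 lies near chrysotile for Plet1 (-3.12) and below all amphibole arrays for E130119H09Rik (-1.40).

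Interferon and chemokine genes had the largest medians among the 37 lists in the chosen scaling. Their leading members followed a ladder in which crocidolite lay close to chrysotile and amosite apart from both. With normexp the chemokine median was 0.10, below the ribosomal protein median of 0.14. With quantile normalization it was 0.13, below the AP-1 median of 0.18. The interferon median was 0.24 and 0.27 in these settings. Of 33 chemokines and cytokines measured, 25 had a positive difference, with a median of 0.23, where 51% of all 22222 named genes were positive with a median of 0.00. By mineral, the list's median was 0.00 from crocidolite and 0.32 from amosite, and 18 of 33 genes had both amphiboles on the same side. None passed the adjusted test, and at an unadjusted p under 0.05 there was 1 higher and 0 lower, against 2.04% and 0.806% of all named genes. That 1 gene was Csf3, a granulocyte growth factor named after its values were seen, which was below background on all 6 fibre arrays.

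Ccl2, the main monocyte-attracting chemokine of fat cells, stood at 2.04 and 3.67 with chrysotile, against 2.33 and 2.51 with crocidolite, 0.26 and 0.68 with amosite, and -0.66 and 0.34 with saline. The crocidolite arrays lay between the chrysotile arrays. Its difference was 1.41 ± 0.85, made of 0.44 ± 0.60 from crocidolite and 2.39 ± 0.60 from amosite. Ccl8, a related chemokine, stood at 1.84 and 3.13 with chrysotile, 2.37 and 2.47 with crocidolite, 0.68 and 0.39 with amosite, and -0.08 and 0.49 with saline, a difference of 1.01 ± 0.78. Neither gene separated chrysotile from both amphiboles.

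The interferon list was shaped likewise. Of 30 genes, 28 were positive with a median of 0.26, but the median was -0.01 from crocidolite and 0.56 from amosite. Oas3, an antiviral oligoadenylate synthase, stood at -3.53 and -3.42 with chrysotile, -3.63 and -3.68 with crocidolite, -5.71 and -5.57 with amosite, and -4.88 and -4.34 with saline. Its amosite and saline arrays were below background, and its difference of 1.17 ± 0.73 was 0.30 with normexp. Bst2, the virus-tethering protein tetherin, gave 0.62 ± 0.55. The acute phase and complement list had opposite signs by mineral, with a median of -0.24 from crocidolite and 0.48 from amosite (0.12 pooled). Its sign was also opposite by replicate number, at -0.13 between the replicate 1 arrays and 0.61 between the replicate 2 arrays. Of its 23 genes, 7 had both amphiboles on the same side. Saa1, an acute-phase protein, stood at 0.03 and 1.25 with chrysotile against 0.46, 0.54, 0.10 and -0.08 on the amphibole arrays.

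AP-1 and immediate early factors had 22 of 27 positive and a median of 0.17. Fosl1, the AP-1 subunit FRA1, stood at -0.19 and 0.78 with chrysotile, 0.29 and -0.24 with crocidolite, -1.60 and -2.08 with amosite, and -1.69 and -2.01 with saline, so that crocidolite overlapped chrysotile. Dusp5, a phosphatase that switches off ERK, did not overlap, at -3.56 and -3.63 with chrysotile against -4.01 and -5.18 with crocidolite and -4.89 and -4.30 with amosite, a difference of 1.00 ± 0.35. It was above background on 2 of 4 amphibole arrays, and the difference was 0.19 with normexp. Inflammasome and interleukin 1 genes had a median of 0.11 (10 of 14 positive), and NF-kB feedback genes 0.06 (16 of 20 positive). The NF-kB median was -0.05 from crocidolite and 0.25 from amosite, 7 of 20 had both amphiboles on the same side, and it was -0.02 with median centring. Ptgs2, the inducible prostaglandin synthase, was below background on all amphibole arrays. With the floor it was 1.12-fold higher with chrysotile, and the difference was 0.11 under normexp.

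Cell-surface proteolysis and adhesion genes held several members with no overlap. In the list of matrix proteases and their inhibitors, 22 of 28 were positive with a median of 0.17. The median was 0.08 from crocidolite, 0.28 from amosite and 0.10 with normexp. In limma's fit 2 were higher and 0 lower at an unadjusted p under 0.05, against 2.04% and 0.806% of all named genes. With the replicate block the count in either direction was 1, against 854 of all 22222 named genes. In 4 genes both chrysotile arrays lay above all 4 amphibole arrays, as they did in 1015 of all 22222 named genes. No overlap in either direction held for 8.41% of the 15003 named genes above background on a whole side. Plaur, the urokinase receptor, stood at -1.54 and -1.53 with chrysotile, against -2.0 and -2.15 with crocidolite, -2.34 and -2.80 with amosite, and -3.19 and -2.84 with saline. Its difference was 0.79 ± 0.24, or 1.73-fold. Plau, urokinase itself, stood at -3.34 and -2.95 with chrysotile, -3.70 and -3.35 with crocidolite, -4.36 and -4.08 with amosite, and -5.70 and -4.62 with saline, a difference of 0.72 ± 0.31. Mmp10, stromelysin 2, was faint, above background on 1 of 4 amphibole arrays, with a difference of 1.11 ± 0.41. With normexp these differences were 0.44 for Plaur, 0.20 for Plau and 0.21 for Mmp10. Plaur and Plau were named after their values were seen.

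Cd44, the hyaluronan and osteopontin receptor, stood at 0.12 and 0.20 with chrysotile, against -0.12 and -0.40 with crocidolite, -0.16 and -0.38 with amosite, and -0.26 and -0.36 with saline. The amphiboles and saline lay together and chrysotile above them, by 0.42 ± 0.13, and all 3 Cd44 probes above background were positive. Itga5, the fibronectin receptor subunit, stood at 0.65 and 0.68 with chrysotile, 0.50 and 0.21 with crocidolite, 0.25 and -0.18 with amosite, and 0.43 and -0.25 with saline, a difference of 0.47 ± 0.20. Itga1, a collagen receptor subunit, ran the other way, at -2.72 and -2.82 with chrysotile against -2.52, -2.11, -2.46 and -2.35 on the amphibole arrays (-0.41 ± 0.15, or -0.27 with normexp). The 23 integrins and adhesion receptors had 16 positive and a median of 0.08. Ctsk, the collagen-cutting cathepsin K, stood at 3.10 and 3.37 with chrysotile, against 2.81, 2.97, 2.92 and 2.94 on the amphibole arrays (0.32 ± 0.12). Cd44, Itga1 and Ctsk were named after their values were seen.

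**Figure D4:**
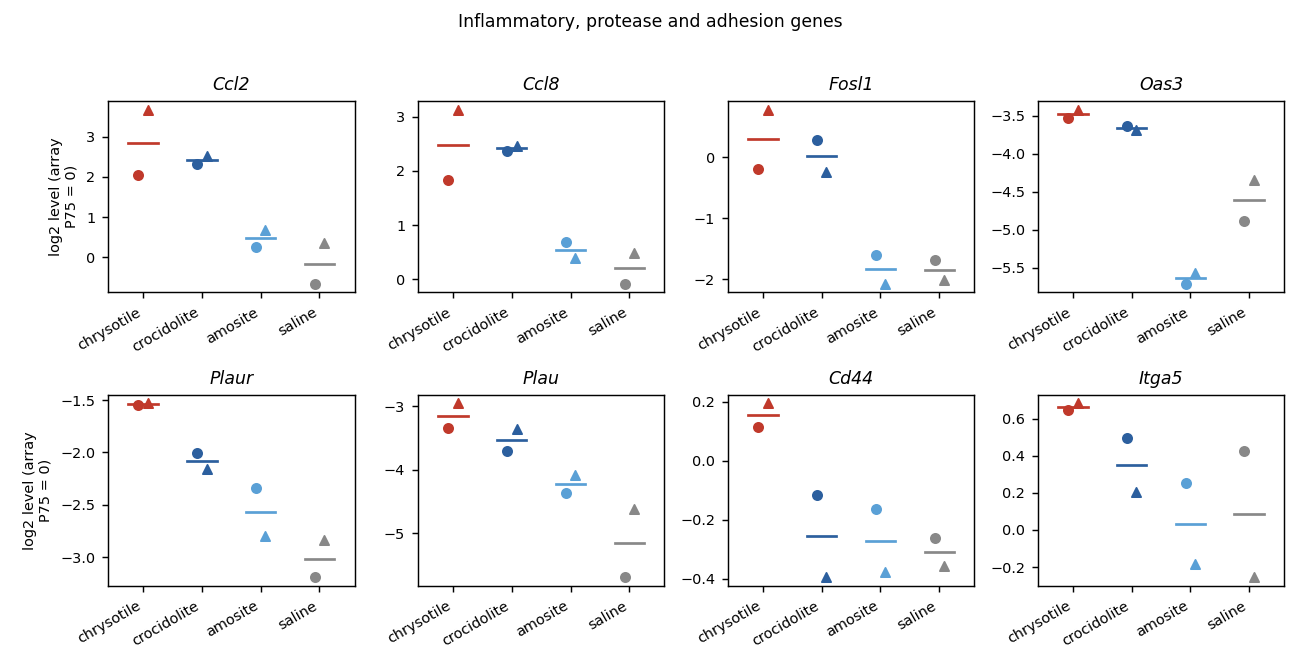
Log2 level of 8 genes, drawn as in the plot of higher genes. For Ccl2, Ccl8, Fosl1 and Oas3 crocidolite lies beside chrysotile, and for Plaur and Cd44 both chrysotile arrays lie above all others (Cd44 at 0.12 and 0.20).

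Growth, stress and metal lists had medians near 0. Ereg (epiregulin), a ligand of the epidermal growth factor receptor, stood at -2.42 and -2.47 with chrysotile, -2.61 and -3.03 with crocidolite, -3.18 and -3.56 with amosite, and -4.05 and -4.28 with saline, a difference of 0.65 ± 0.26 in a list whose median was -0.01. Hspb1, a small heat shock protein, stood at -3.88 and -3.92 with chrysotile, against -4.65, -4.31, -4.76 and -4.83 on the amphibole arrays (0.74 ± 0.17), and was above background on 2 of these 4. With normexp the difference was 0.29 for Ereg and 0.18 for Hspb1. The heat shock list had a median of 0.00 with 7 of 15 positive. Because the minerals differ in iron and magnesium, those lists were read too. Of 29 iron and heme genes 15 were positive with a median of 0.01, and of 18 magnesium transport genes 9 were positive with a median of -0.01. Steap1, of a family of metalloreductases, stood at -0.37 and -0.41 with chrysotile, -0.71 and -1.04 with crocidolite, -1.07 and -1.87 with amosite, and -1.47 and -1.96 with saline (0.78 ± 0.32). NRF2 and glutathione genes had a median of -0.03 (13 of 34 positive), and metallothionein and zinc genes -0.05 (4 of 11 positive).

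Fuel metabolism lists had medians between -0.12 and -0.04, and in 5 of these 7 lists the sign was opposite between the replicate numbers. Of 26 fatty acid oxidation genes, 4 were positive and the median was -0.10, with 0.00 from crocidolite and -0.18 from amosite, and 0.02 between the replicate 1 arrays and -0.20 between the replicate 2 arrays. Of 23 lipogenesis genes 4 were positive (median -0.07, or 0.05 for replicate 1 and -0.20 for replicate 2), and Fasn, fatty acid synthase, stood at 0.87 and 0.91 with chrysotile, against 0.93, 1.01, 1.07 and 1.27 on the amphibole arrays (-0.18 ± 0.13). Oxidative phosphorylation genes had 7 of 34 positive and a median of -0.05, which was 0.09 between the replicate 1 arrays and -0.20 between the replicate 2 arrays. Thermogenic genes had a median of -0.12 (0.04 from crocidolite, -0.19 from amosite; 0.02 for replicate 1, -0.25 for replicate 2). Adipocyte identity genes had -0.04 (0.02 for replicate 1, -0.08 for replicate 2), and cholesterol and insulin signalling genes -0.05 each, below 0 for both replicate numbers. In limma's fit 0 genes of these lists had an unadjusted p under 0.05, and 0 passed the adjusted test.

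All 38 ribosomal protein genes measured had a positive difference with both amphiboles on the same side, between 0.06 and 0.20, with a median of 0.13. That median was 0.02 with quantile normalization, 0.05 with median centring and 0.14 with normexp, so its size depended on the scaling. By array, the list's median relative to the amphibole mean was 0.25 and 0.01 with chrysotile, 0.14 and -0.04 with crocidolite, and 0.09 and -0.19 with amosite. Chrysotile replicate 2 thus lay below the replicate 1 array of each amphibole. Between same-numbered arrays the median was 0.13 for replicate 1 and 0.12 for replicate 2. Of the 4 reference transcripts, Ppib differed by 0.14 ± 0.11, Gapdh by 0.14 ± 0.11 and Actb by 0.11 ± 0.14, Actb being -0.04 with quantile normalization. Hprt differed by 0.05 ± 0.13, with -0.07 from crocidolite and 0.17 from amosite, and by -0.02 with median centring. Hypoxia and glycolysis genes had 29 of 33 positive and a median of 0.10, with -0.03 from crocidolite and 0.17 from amosite, and 12 of 33 had both amphiboles on the same side. Of the cell cycle genes, 26 of 34 were positive with a median of 0.05, turning to -0.03 with median centring.

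Markers of other cells were read beside these lists. Of 16 macrophage markers 8 were above background on a whole side, and the summed level of all 16 was 6.05 and 6.25 with chrysotile, between 5.97 and 6.13 on the amphibole arrays, and 6.07 and 6.23 with saline. Lyz2, C1qa and Mrc1 were below background on all 8 arrays. Cd68, a lysosomal glycoprotein of macrophages, stood at -0.37 and -0.48 with chrysotile, against -0.46, -0.77, -0.72 and -1.06 on the amphibole arrays, and C1qb, a complement subunit, differed by -0.34 ± 0.13 (-0.18 with normexp). C1qa and C1qb were the 2 of 16 on the low side at an unadjusted p under 0.05, against 0.806% of all named genes, and 0 passed the adjusted test. The summed level of 19 preadipocyte and fibroblast markers was 9.53 and 9.16 with chrysotile, against 9.44 and 9.09 with crocidolite and 9.42 and 9.09 with amosite, so that it followed the replicate number. Hmga2 is itself in that list. The share of these cells in any result was not tested, and in a whole culture fewer cells of a type and less RNA per cell cannot be told apart.

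**Figure D5:**
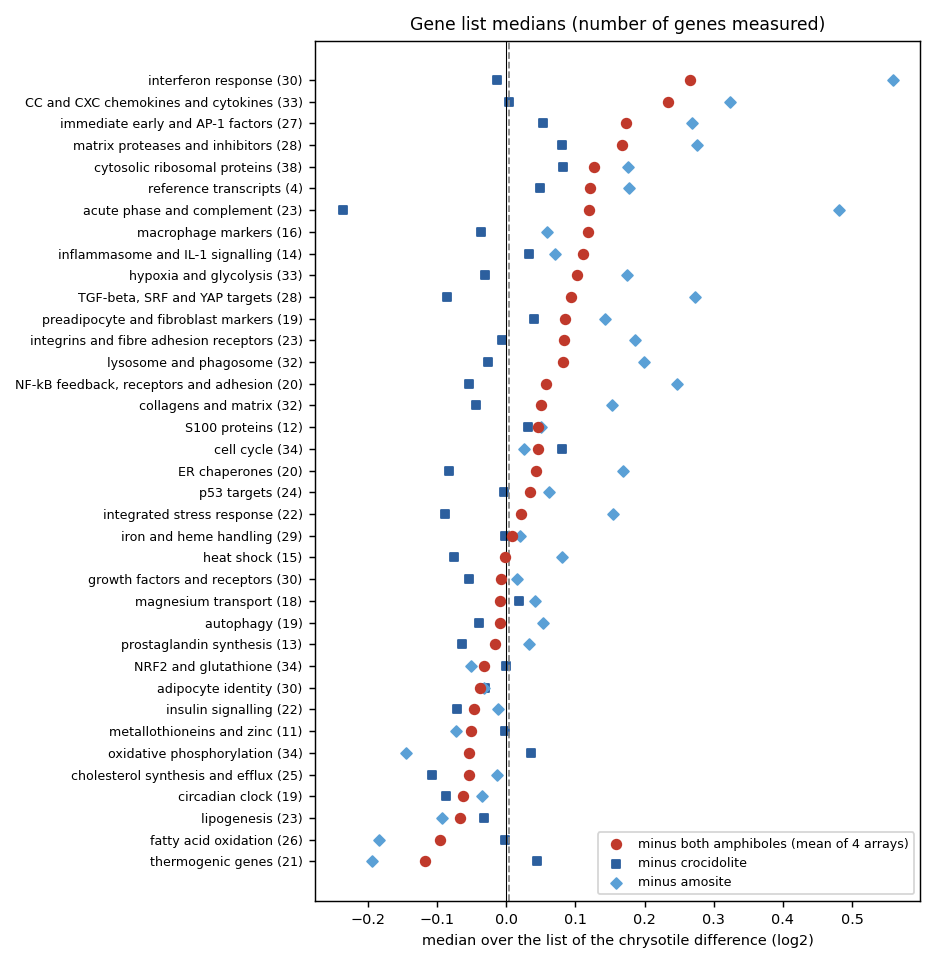
Median log2 difference over each of 37 gene lists (genes measured in brackets), for chrysotile minus both amphiboles (red), minus crocidolite (dark squares) and minus amosite (light diamonds). The dashed line is the median of all named genes, 0.00. The widest gaps between the minerals are in the acute phase list (-0.24 and 0.48) and the interferon list (-0.01 and 0.56). The acute phase list also differed by replicate number (-0.13 for replicate 1, 0.61 for replicate 2).

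The difference between the amphiboles was tested by probe, and not for the list medians. In a fit of all 8 arrays as 4 groups, 0 probes had an adjusted p under 0.05 for crocidolite against amosite (smallest 0.9175, limma). At an unadjusted p under 0.05 there were 2119 of 55672 probes. The same fit gave 1716 probes for chrysotile against both amphiboles. For Hmga2 crocidolite exceeded amosite by 0.51 ± 0.33, for Tnnt2 by 0.79 ± 0.22, for Spp1 by 1.43 ± 0.34 and for Ccl2 by 1.95 ± 0.60. For Mroh2a it was 0.32 ± 0.33 and for Megf10 -0.04 ± 0.39. The distance between crocidolite and amosite entered the error of every pooled difference.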

How the data were processed

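Total RNA was labelled with Cy3 and hybridised to 1-colour Agilent arrays. The deposited files hold a linear intensity for each spot, background-subtracted by the authors' scanner software (Feature Extraction 10.7.1.1 per the file headers, 10.7 per the submitters' processing notes), and the deposited value table held identical numbers (largest difference 0). Probe positions are on mm9 per the file headers. Control spots were removed, as were 99 to 183 flagged spots on each array. Replicate spots were averaged by probe, 9 of 55681 probes were dropped, and the 75th percentile of its own log2 intensity was subtracted from each array. Symbols came from transcript accession (26769 probes), symbol (3817) or synonym (638), and 24457 probes had none. The brightest probe stood for each gene. The fit was limma 3.58.1 (R 4.3.3) on the 6 fibre arrays, 2 sides, with Benjamini-Hochberg adjustment, checked on simulated data. It had 4 residual and 1.556 prior degrees of freedom. In the simulated data it called 14 of 67 changes of 1 log2 unit, 38 of 67 of 2 units and 51 of 66 of 4 units. There were 3 false calls, so most changes near 2-fold were missed. Named genes are the 12 per direction with the smallest p among those 2-fold apart with no overlap, up to 2 per list, and reference transcripts; other names are stated as chosen after their values were seen, and 1 gene the rule takes is not reported here. The members and lists were chosen with earlier results of these data known. Deviations of same-numbered arrays correlated in all 6 pairs of groups, at 0.2072 to 0.3628 over all probes. Over probes above background on all 6 fibre arrays the correlations were 0.2612 to 0.5541. The replicate number was fitted as a block in an alternative. The labels do not say what the number stands for, and the cause of the correlation was not tested. Alternatives changed the groups fitted, filter, scaling, background correction, prior and arrays. A block by slide or scan date could not be fitted, with 1 of each.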

Additional observations from a re-analysis of the deposited data

Results flagged for a closer look

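In 4 of 111 genes checked, 1 amphibole array stood far from the other 3, by a rule under which chance marks about 1 in 20. Dpys was at -6.041 on amosite replicate 2, with the nearest other array at -5.395. Adgrg3 was at -4.093 on amosite replicate 1 (nearest -4.64), and Efhb at -4.757 on crocidolite replicate 1 (nearest -5.18). Plet1 was at -3.341 on amosite replicate 1 (nearest -1.762), close to the chrysotile arrays. Of these, Plet1 was above background on all 4 amphibole arrays, whereas Dpys and Efhb were below it on all 4.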

How the results depend on the processing

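The count of adjusted calls was 0 in every setting except those with 1 chrysotile array, and over the 6 settings that leave out an array it ran from 0 to 1066. In the same settings the 2-fold counts ran from 835 to 5353 higher and from 317 to 1815 lower, and the probes with both amphiboles on the same side from 32490 to 43112. In those settings fewer arrays make no overlap easier to meet, so the 2-fold counts are not like for like with 697 and 222. The replicate block, which pairs same-numbered arrays, left 0 adjusted calls, so no adjusted call changed. The 2-fold counts rest on array levels and side means, which the block leaves as they are, so they cannot test it. At an unadjusted p under 0.05 there were 2645 of 55672 probes with the block and 1919 without it. Over all 22222 named genes there were 854 with the block and 633 without it. By list, the counts with against without the block were 1 against 2 of 28 matrix proteases and 0 against 1 of 28 TGF-beta, SRF and YAP targets. They were 1 against 0 in each of fatty acid oxidation (26 genes) and the cell cycle (34 genes), and 2 against 1 of 19 preadipocyte markers. They were 3 against 2 of 23 acute phase and complement genes, and 4 against 3 of 23 integrins and adhesion receptors. The 2-fold counts, higher then lower, were 115 and 34 with only bright probes (19579 on the same side), which the block again cannot change. They were 390 and 142 with 1 probe per gene (22886). Scaling gave 413 and 420 with quantile normalization, 555 and 402 with median centring, and 11 and 2 with normexp. Against crocidolite alone they were 1737 and 508, and against amosite alone 1137 and 750, where a same-side count has no meaning. With only 1 amphibole on that side, no overlap is likewise easier to meet. Chosen after seeing the data, probes above background on all 6 arrays gave 17 and 16 (17895), and normexp on bright probes 11 and 2 (18216). The split between higher and lower therefore depends on the scaling: quantile normalization gave nearly equal counts where the 75th percentile gave 697 and 222. The 13 probes left by normexp were all among those 2-fold apart in the chosen setting, with Prl2c5, Prl2c1, Hmga2, Tnnt2, Tigit and Spp1 higher and Olfr122 and Mroh2a lower. List medians above 0 numbered 22 of 37, against 14 with median centring, which moved the median of all probes from 0.01 to -0.07, and 12 against crocidolite alone.

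Differences that turned sign were Actb at -0.035 with quantile normalization and Hprt at -0.023 with median centring and -0.068 against crocidolite alone. Leaving out 1 array at a time, 10 differences turned sign, and they ranged from -0.135 to 0.638 for Ero1a, -0.7998 to 0.404 for Adrb3, -1.15 to 0.683 for Slc25a20, -0.036 to 0.457 for Slc7a5, -0.228 to 0.99 for Saa1, -0.912 to 0.482 for Map1lc3a, -1.26 to 0.125 for Srebf2, -0.337 to 0.0059 for Cryab, -0.535 to 0.183 for Asns and -0.014 to 0.748 for Dio2, with both extremes set by leaving out a chrysotile array. The causes were not tested. Signal over background limits the faint transcripts, where the 2-fold counts largely lay.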
